A study of Rattus norvegicus with 2 samples.

Results

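The TNF superfamily genes described here are 8 named genes: the ligands Tnf, Tnfsf8 and Tnfsf14, the receptors Tnfrsf1a, Tnfrsf1b, Tnfrsf9 and Tnfrsf12a, and the adaptor Traf1. They were chosen by gene symbol among 15409 symbols in the deposited transcript table, and the levels of a gene's transcripts were summed. Of the 8 genes, 6 had rows, with 9 transcripts in all, and Tnfsf14 and Tnfrsf1a had none. A missing row does not show that a gene was not expressed.

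RNA was sequenced from RBL-2H3, a rat cell line from a basophilic leukaemia that serves as a mast cell model. One library, called saline below, is from cells that received normal saline. The other, called treated, is from cells exposed to fine particulate matter (PM2.5) and also to IgE plus its antigen DNP-HSA, which crosslinks the IgE receptor. A treatment time is not in the labels, nor is it stated if IgE and antigen were also added to the saline cells, so effects of particles and of receptor crosslinking cannot be told apart here. Each group had 1 library, so differences have no replicate check and conditions could not be tested.

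Ligands of the TNF family are mostly membrane proteins that act as trimers, and some are also cut from the cell surface. They bind receptors that either carry a death domain or recruit TRAF adaptor proteins, and both routes lead to NF-kappaB and JNK signalling. Mast cells are known as a source of TNF, which they can hold in granules and also make anew after IgE receptor crosslinking.

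Reads recovered for the 20367 listed transcripts summed to 7279671 in the saline library and 3964955 in the treated library, a ratio of 1.84. These sums are not the numbers of reads sequenced. Levels are normalised read counts, meaning reads divided by a size factor for each library. They are not corrected for transcript length, so levels are compared between libraries for 1 gene and not between genes. Intervals are exact 95% intervals that cover counting error only. A lack of overlap between them is no test of the conditions, and the share of all symbols without overlap was not counted. Of 9 mast cell markers 7 had rows, including Kit and the IgE receptor chain Ms4a2, while Tpsab1 and Mcpt2 had none. Of these 7, 4 had log2 folds above 0 and 3 below, from -1.07 for Hdc to 1.74 for Cpa3, with a median of 0.44. Their summed level, most of it from Kit and Gata2, was 23778 in the saline and 20342 in the treated library. None of 5 lymphocyte markers and none of 5 neutrophil and eosinophil markers had a row. Of 5 macrophage markers 3 had rows, with a summed level of 1273 in the saline and 510 in the treated library, nearly all of it Csf1r. Cd68 had 19 reads in the saline and 0 in the treated library. Adgre1 had 48 and 23 reads, a log2 fold of -0.13 with an interval of the log2 ratio from -0.92 to 0.61. Of 5 fibroblast and epithelial markers 2 had rows, with a summed level of 13.9 in the saline and 28.1 in the treated library. The part of these markers in the results was not tested.

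The sequences before the RefSeq start sites of 3 genes are shown because these genes had the highest and the lowest log2 folds of treated over saline among those with more than a few reads: Tnf the highest, and Tnfsf8 and Tnfrsf12a the lowest. Each is the 250 bases upstream of the start, 5′ to 3′ on the gene's own strand, from RefSeq on GRCr8, a build that may differ from the one behind the deposited values. Tnf lies at chr20:3626435-3626684 on the plus strand, Tnfsf8 at chr5:82292859-82293108 on the minus strand and Tnfrsf12a at chr10:13213649-13213898 on the minus strand. Capitals mark every match, on either strand, to the NFAT core GGAAA, the AP-1 site TGANTCA, the EGR site GCGNGGGCG, the TATA box TATAAA or the NF-kappaB site.
Tnf: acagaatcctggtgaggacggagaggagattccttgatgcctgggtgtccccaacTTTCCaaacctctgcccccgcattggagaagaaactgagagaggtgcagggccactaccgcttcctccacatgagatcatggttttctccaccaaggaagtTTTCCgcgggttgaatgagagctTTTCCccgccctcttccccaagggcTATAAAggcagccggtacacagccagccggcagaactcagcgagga
Tnfsf8: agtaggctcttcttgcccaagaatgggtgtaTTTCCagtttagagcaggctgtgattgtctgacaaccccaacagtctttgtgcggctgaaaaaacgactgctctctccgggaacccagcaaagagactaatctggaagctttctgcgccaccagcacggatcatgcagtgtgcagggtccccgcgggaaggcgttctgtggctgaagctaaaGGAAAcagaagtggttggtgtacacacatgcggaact
Tnfrsf12a: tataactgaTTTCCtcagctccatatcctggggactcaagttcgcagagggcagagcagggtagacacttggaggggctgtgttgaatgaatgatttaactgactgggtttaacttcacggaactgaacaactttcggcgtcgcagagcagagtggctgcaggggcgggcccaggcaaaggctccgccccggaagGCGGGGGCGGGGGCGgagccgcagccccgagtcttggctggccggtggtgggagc

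These windows held few of the motifs searched. Tnf had 3 matches to the NFAT core and 1 to the TATA box, Tnfsf8 had 2 matches to the NFAT core, and Tnfrsf12a had 1 match to the NFAT core and 2 to the EGR site. The EGR matches began at positions -55 and -49 from the start and overlap each other. Among the windows of the same length before 27457 RefSeq genes, 56.7% held the NFAT core, 13.1% the TATA box, 4.53% the EGR site, 6.36% the AP-1 site and 6.41% the NF-kappaB site. Of the other 5 genes, whose windows are not printed, Traf1 and Tnfrsf1b each had 1 AP-1 match, and Tnfsf14 had 1 NF-kappaB match that reads as a match on both strands. A match is a description of letters and not a measured site.

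The comparison asked how far these genes differ between the treated and the saline cells. Tnfsf8, the CD30 ligand, was lower in the treated library by a wide margin, and Tnfrsf12a, the receptor for TWEAK, was lower as well. Tnf itself was higher and Traf1 lower, both within 2-fold, and the interval of Tnfrsf9 held no difference. Tnfrsf9 and Traf1 each had transcripts with log2 folds on both sides of 0, although the interval of the lower Tnfrsf9 transcript held 0. A gene was counted as higher or lower when its log2 fold, on normalised counts plus 1, reached 1 in either direction and 1 or both libraries had a normalised count of 1 or more. By this rule 0 of 6 measured genes were higher and 3 were lower, 1 of them on 3 reads alone. Among all 15097 symbols tested, 12.1% were higher and 19.1% were lower. The median log2 fold of the 6 genes was -1.14, against -0.07 over all symbols tested, and -0.74 over the 5 genes with reads in both libraries.

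**Figure D1:**
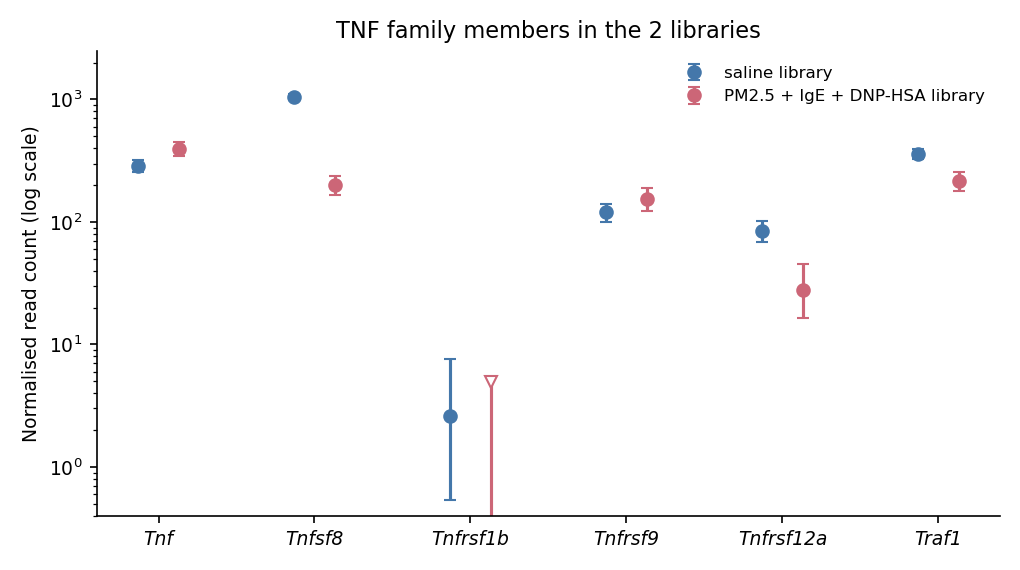
Normalised read counts (log axis) of the 6 measured genes in the saline library (blue) and the PM2.5, IgE and DNP-HSA library (red), with bars for the exact 95% Poisson interval of counting error. The intervals of Tnfsf8, Tnfrsf12a, Traf1 and Tnf do not overlap between libraries, and those of Tnfrsf9 do. The share of all symbols without such overlap was not counted, so a lack of overlap does not mark a gene as unusual. The open triangle for Tnfrsf1b marks the floor of 3 reads that a count of 0 allows, a normalised count of 4.95.

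Among the ligands, Tnfsf8 (ENSRNOG00000048321) encodes the CD30 ligand, a membrane protein that signals to CD30 on lymphocytes and other cells. It stood at a normalised count of 1041 (982.7 to 1101) in the saline library and 199.8 (166 to 239) in the treated library, from 1200 and 121 reads. The saline level was high and the treated level low, with no overlap of the counting intervals. The level in the treated library was 5.21-fold lower, a log2 fold of -2.37, and the interval of the log2 ratio ran from -2.66 to -2.11. In bulk RNA, fewer cells that express a gene and less RNA per cell cannot be told apart. Among the 3054 symbols whose mean level lay within 2-fold of that of Tnfsf8, 5.01% were at least 2-fold lower and 0.327% had a log2 fold below that of Tnfsf8. Its receptor gene Tnfrsf8 had no row.

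Tnf (ENSRNOG00000055156), the founding cytokine of the family, stood at a normalised count of 286 (256 to 319) in the saline library and 393 (345 to 446) in the treated library, from 330 and 238 reads. The treated level was the higher one, and the counting intervals of the levels did not overlap. The treated level was 1.37-fold that of the saline library, a log2 fold of 0.46 with an interval of the log2 ratio from 0.21 to 0.70. This size is common: of the 4031 symbols within 2-fold of its mean level, 22.6% had a higher log2 fold and 6.10% were at least 2-fold higher. The third ligand, Tnfsf14, also known as LIGHT, had no row.

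**Figure D2:**
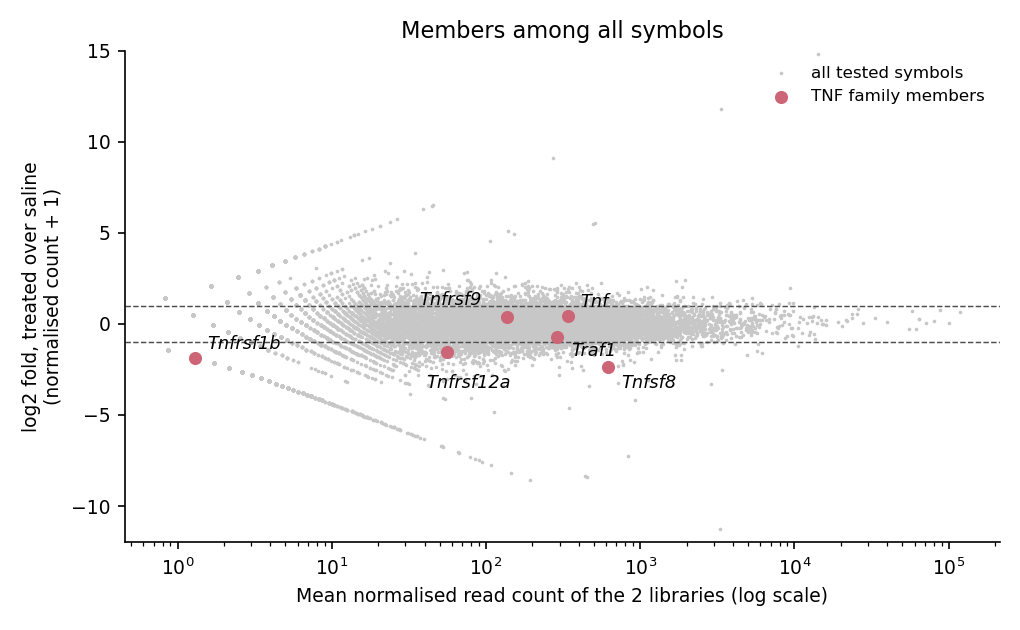
Log2 fold of the treated over the saline library (normalised count plus 1) against the mean normalised count (log axis) for all 15097 symbols tested (grey) and the 6 measured genes (red). Dashed lines mark log2 folds of -1 and 1. Tnfsf8, at -2.37, lies below nearly all symbols of like level, whereas Tnfrsf1b lies in the low-count range where folds fall on discrete lines set by a few reads.

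Among the receptors, Tnfrsf12a (ENSRNOG00000003546), also called Fn14, is a small receptor without a death domain that binds TWEAK. Its normalised count was 84.1 (68.2 to 103) in the saline library and 28.1 (16.4 to 45) in the treated library, from 97 and 17 reads. The treated level was low and the counting intervals did not overlap. This was a log2 fold of -1.55 with an interval of the log2 ratio from -2.42 to -0.83, so that the reads also allow a difference of under 2-fold. Of 3047 symbols within 2-fold of its mean level, 14.9% were at least 2-fold lower and 5.91% had a lower log2 fold.

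Tnfrsf9 (ENSRNOG00000036942), or CD137, is a costimulatory receptor that recruits TRAF proteins. Summed over its 2 transcripts it had a normalised count of 119.7 (101 to 141) in the saline library and 153.6 (124 to 188) in the treated library, from 138 and 93 reads. The levels were near each other and their intervals overlapped. The log2 fold was 0.36, and the interval of the log2 ratio, from -0.04 to 0.75, held 0.

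Both receptors of TNF itself gave little to measure. Tnfrsf1b (ENSRNOG00000016575), which encodes TNFR2, had 3 reads in the saline library and 0 in the treated library. With 3 reads taken as the floor that a count of 0 allows, a normalised count of 4.95 in the treated library, the gene was at or under this floor in both libraries and no fold is given. It passes the size rule on 3 against 0 reads, and 57.3% of the 1842 symbols within 2-fold of its mean level were at least 2-fold lower too. Its gene overlaps another RefSeq gene, LOC103692519. Tnfrsf1a, which encodes the death domain receptor TNFR1, had no row.

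Traf1 (ENSRNOG00000048914) encodes an adaptor that binds TNFR2, CD137 and other receptors and, unlike the other TRAF proteins, lacks a RING domain. Summed over 3 transcripts it had a normalised count of 358 (324 to 394) in the saline library and 215 (179 to 255) in the treated library, from 413 and 130 reads. The treated level was lower and the intervals did not overlap. The log2 fold was -0.74, with an interval of the log2 ratio from -1.03 to -0.45. Of the 4187 symbols within 2-fold of its mean level, 13.2% had a lower log2 fold.

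The transcripts of Tnfrsf9 and of Traf1 had log2 folds on both sides of 0, although the interval of the lower Tnfrsf9 transcript held 0. For Tnfrsf9, the transcript ENSRNOT00000055506 stood at a normalised count of 43.4 in the saline and 95.8 in the treated library (50 and 58 reads), a log2 fold of 1.13 with an interval of the log2 ratio from 0.57 to 1.72. Its other transcript, ENSRNOT00000077202, stood at 76.3 and 57.8 (88 and 35 reads), a log2 fold of -0.39 with an interval from -1.01 to 0.18. The share of the gene's reads given to ENSRNOT00000055506 was 36.2% (28.2% to 44.8%, exact Clopper-Pearson interval) in the saline library and 62.4% (51.7% to 72.2%) in the treated library. The transcript with the smaller share in the saline library therefore had the larger share in the treated library, and the intervals did not overlap.

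For Traf1, the main transcript ENSRNOT00000092980 held 96.9% (94.7% to 98.3%) of the reads in the saline library and 86.9% (79.9% to 92.2%) in the treated library. It stood at a normalised count of 347 in the saline and 187 in the treated library (400 and 113 reads), a log2 fold of -0.89. The minor transcript ENSRNOT00000092918 stood at 6.07 and 26.4 (7 and 16 reads), a log2 fold of 1.96 with an interval of the log2 ratio from 0.76 to 3.65, and its share was 1.69% (0.68% to 3.46%) in the saline and 12.3% (7.20% to 19.2%) in the treated library. The third transcript, ENSRNOT00000072400, had 6 and 1 reads. The minor transcript was thus higher in the treated library while the main one was lower.

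**Figure D3:**
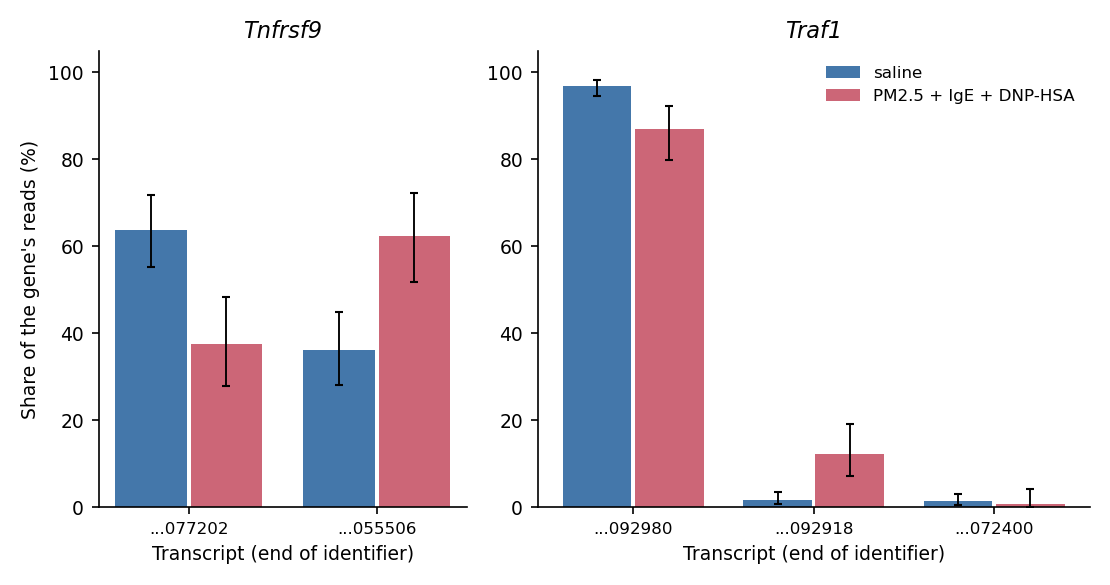
Share of the gene's reads (%) given to each transcript of Tnfrsf9 (left) and Traf1 (right) in the saline (blue) and treated (red) library, with bars for exact 95% Clopper-Pearson intervals. The Tnfrsf9 shares change places between libraries, from 36.2% to 62.4% for ENSRNOT00000055506, and the minor Traf1 transcript goes from 1.69% to 12.3%.

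Such opposite transcripts were frequent in the whole table. Of 2227 symbols with 2 or more transcripts at a normalised count of at least 5, 45.9% had a transcript above 0 and another below 0 with log2 folds at least 1 apart. Among the 2065 symbols with 2 or more transcripts and at least 50 reads in each library, the largest shift in share was at least the 26.1 percentage points of Tnfrsf9 in 20.9%, and at least the 10.6 points of Traf1 in 37.3%. The median over these symbols was 6.22 points. How reads were divided among transcripts of 1 gene is not stated in the labels.

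The authors' deposited table lists a p-value for each transcript. For Tnfsf8 it gives p = 0.0384 and an adjusted p of 0.92, and in the authors' deposited table this p ranks 7 among 20367 transcripts. The lowest adjusted p in the authors' deposited table was also 0.92. Tnfsf8 was the only one of the 8 genes among the 57 transcripts the authors selected, of which 39 were lower and 18 higher in the treated library. Their annotation places Tnfsf8 in cytokine-cytokine receptor interaction. Among the genes of the related lists described below, Tnfaip3 was the only one selected. For the other transcripts of the measured genes, the p-values in the authors' deposited table ran from 0.202 for Tnfrsf12a to 0.651 for Tnfrsf1b, with 0.404 for Tnf and 0.269 for the Tnfrsf9 transcript ENSRNOT00000055506.

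Other ligands and receptors of the family had few reads, and the shares of all symbols given above (12.1% higher, 19.1% lower) are the background for this and the lists that follow. Of 15 further ligands 8 had rows, 1 was at least 2-fold higher, 2 were lower and 5 lay within 2-fold. The median log2 fold was 0.04, or 0.27 over the 7 with reads in both libraries. Without Lta, which had 2 reads in each library, the median of the remaining 7 was -0.19. The sign of the ligand median thus depends on genes with few reads. The higher one was Ltb, which encodes lymphotoxin beta, at 15.6 in the saline and 41.3 in the treated library (18 and 25 reads), a log2 fold of 1.35 with an interval of the log2 ratio from 0.47 to 2.36. Tnfsf9, the ligand of CD137, was lower, at 46.8 and 21.5 (54 and 13 reads), a log2 fold of -1.09 with an interval from -2.12 to -0.23. The other lower ligand, Eda, was named after its values were seen and had 4 against 0 reads, too few for a fold. Tnfsf12, which encodes TWEAK, stood at 81.5 and 54.5 (94 and 33 reads), a log2 fold of -0.57 with an interval from -1.20 to 0.0052. The TWEAK gene and its receptor gene Tnfrsf12a both had values below 0, while Tnfsf9 was below 0 and its receptor gene Tnfrsf9 above. The intervals of Tnfsf12 and Tnfrsf9 held 0, and agreement within ligand and receptor pairs was not tested.

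Of 22 further receptors 5 had rows, and all 5 had log2 folds below 0, with a median of -1.19, or -0.92 over the 3 with reads in both libraries. The median over all symbols tested was -0.07, and the share of all symbols below 0 was not counted. The size rule counted 3 of the 5 as lower, 0 as higher and 2 as within 2-fold. With a pseudocount of 5, 0 were lower. Tnfrsf11a, which encodes RANK, was lower at 27.8 in the saline and 11.6 in the treated library (32 and 7 reads), a log2 fold of -1.19 with an interval of the log2 ratio from -2.69 to -0.06. The other lower receptors, Tnfrsf4 (5 against 0 reads) and Tnfrsf18 (2 against 0), were named after their values were seen and allow no fold. At such low levels many symbols were lower, as were 57.3% of the 1842 symbols near the level of Tnfrsf1b. The lymphotoxin beta receptor gene Ltbr was at -0.92 with an interval from -1.88 to -0.10, and Relt, an orphan receptor, at -0.75 with an interval from -1.44 to -0.12.

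TRAF adaptors and TRAF-binding proteins lay mostly within 2-fold. All 12 listed genes had rows and 11 could be tested, of which 1 was at least 2-fold higher, 0 were lower and 10 lay within 2-fold. Of the 11 log2 folds 8 were below 0, and the share of all symbols below 0 was not counted. The median was -0.44, against -0.07 over all symbols tested. Tank, which encodes a TRAF-binding regulator of NF-kappaB and interferon signalling, was the higher one, at 49.4 in the saline and 110.7 in the treated library (57 and 67 reads), a log2 fold of 1.15 with an interval of the log2 ratio from 0.63 to 1.70. Traf2, the partner of TRAF1 on TNF receptors, was at -0.92 with an interval from -1.31 to -0.55, and Traf4 at -0.90 with an interval from -1.35 to -0.47. The more abundant Traf7 was at -0.47, and Traf3 was at -0.20 with an interval from -0.54 to 0.13.

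Genes on the list called TNF receptor complex, not all of which need be part of the complex on the receptor, went both ways. Of 24 measured genes 3 were at least 2-fold higher, 3 were lower and 18 lay within 2-fold, with a median log2 fold of -0.24. Fadd, the death domain adaptor that recruits caspase-8, was the lowest, at 236 in the saline and 71.0 in the treated library (272 and 43 reads), a log2 fold of -1.72 with an interval of the log2 ratio from -2.23 to -1.26. The kinase gene Ikbkb was at -1.08 with an interval from -1.40 to -0.78. Spata2, an adaptor of the deubiquitinase CYLD, was at -1.03 and was named after its values were seen.

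The 3 higher genes of the receptor complex list, of 24 measured, all encode inhibitor of apoptosis proteins. Such a count is near the share over all symbols, of which 12.1% were higher. Birc3 was just past the size rule, and the count was 2 with a pseudocount of 5, with library totals made equal and with TMM factors. Xiap stood at 101 in the saline and 216 in the treated library (117 and 131 reads), a log2 fold of 1.08 with an interval of the log2 ratio from 0.72 to 1.46. Birc2 and Birc3, which encode the ubiquitin ligases cIAP1 and cIAP2 that bind TRAF2, were named after their values were seen, at 1.06 (0.81 to 1.32) and 1.003 (0.78 to 1.23). The abundant genes Tab2 and Otulin were at -0.15 and 0.47.

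**Figure D4:**
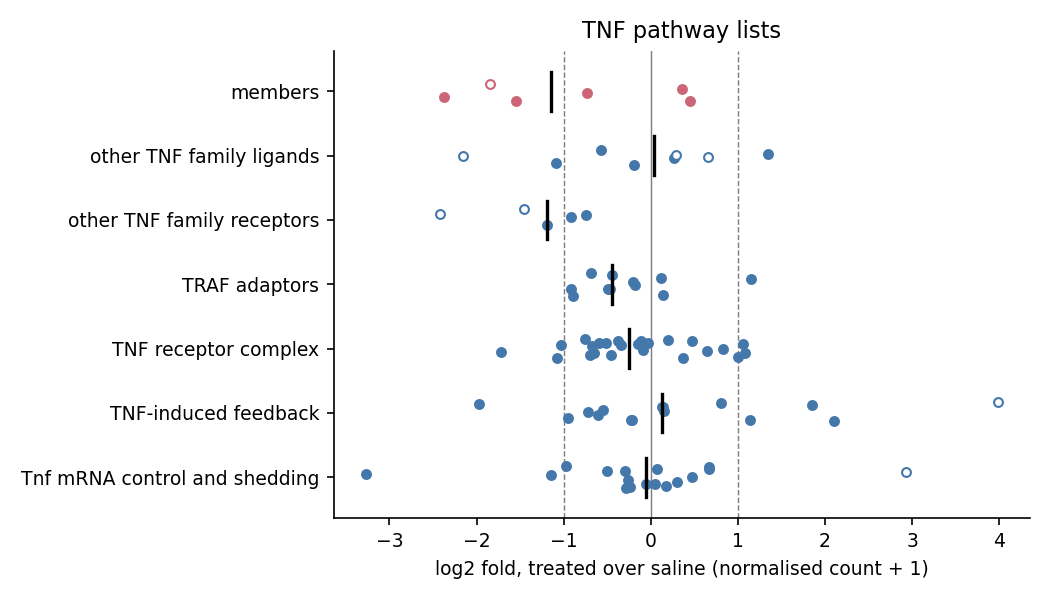
Log2 fold of the treated over the saline library for each gene of the 6 measured family genes (red) and 6 lists of related genes (blue), with black lines for the medians. Open circles have under 10 reads in both libraries and dashed lines mark log2 folds of -1 and 1. Where a gene had 0 reads in a library, as Tnip3, Timp3 and Mapkapk3 did, its position depends on the added 1. The median of the further receptors lies at -1.19 and that of the list called TNF-induced feedback at 0.13.

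The list called TNF-induced feedback included the largest positive log2 fold of the 6 related lists. This was that of Tnip3, which rests on few reads and whose size depends on the added 1. Induction of the listed genes by TNF was not tested. Of 15 measured genes 4 were at least 2-fold higher, 1 was lower and 10 lay within 2-fold, with a median log2 fold of 0.13. Tnfaip3, which encodes the ubiquitin-editing inhibitor A20, stood at 523 in the saline and 1888 in the treated library. Nfkbia, which encodes IkappaB-alpha, stood at 1382 and 3046. Tnip3, an A20-binding inhibitor, had 0 reads in the saline and 9 in the treated library, and the interval of its log2 ratio began at 1.91. Tnfaip8l1 was at 2.10 with 4 and 11 reads and an interval of the log2 ratio from 0.63 to 4.50. Tnip2, another A20-binding protein gene, was the lower one, at 80.7 and 19.8 (93 and 12 reads), a log2 fold of -1.97 with an interval from -3.03 to -1.15. The A20 partners Tnip2 and Tnip3 thus lay on opposite sides. Their relative Tnip1, named after its values were seen, had 446 and 258 reads. It was at 0.14 with an interval from -0.09 to 0.36.

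Genes that act on Tnf mRNA or on shedding of the protein were mostly within 2-fold. Of 17 measured genes 1 was at least 2-fold higher, 2 were lower and 14 lay within 2-fold, with a median log2 fold of -0.05. Rhbdf2, which encodes iRhom2, the partner that brings the TNF sheddase to the cell surface, stood at 408 in the saline and 183 in the treated library (470 and 111 reads), a log2 fold of -1.15 with an interval of the log2 ratio from -1.46 to -0.85. The sheddase gene Adam17 itself, named after its value was seen, was at 0.47 with an interval from 0.27 to 0.68. Zfp36, whose product tristetraprolin speeds the decay of Tnf mRNA, was also named afterwards, at 0.67 with an interval from 0.50 to 0.85. The kinase gene Mapkapk3 had 10 reads in the saline and 0 in the treated library, and the interval of its log2 ratio ended at -0.24, while the abundant Mapkapk2 was at -0.26 and Adam10 at -0.05. Timp3, an inhibitor of the sheddase, had 4 reads in the treated library and 0 in the saline library.

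The nearest measured genes on either side, in the RefSeq gene order of GRCr8, went both ways and were chosen by position alone. Tnf lies between Lta and Ltb, and the neighbours Nfkbil1 (0.36), Lta (0.65) and Ltb (1.35) all had values above 0, although Lta had 2 reads in each library. The intervals of the log2 ratio held 0 for Nfkbil1 (-0.03 to 0.76) and Lta (-2.86 to 4.72). Tnfsf8 lies next to Tnfsf15, which was at -0.19 with 11 and 5 reads, and beyond it Atp6v1g1 was at 0.96 with an interval from 0.73 to 1.20. On its other side Tnc had 3 and 2 reads and Astn2 was at -0.53. The intervals of Atp6v1g1 and Astn2 (-1.03 to -0.07) thus lay well above that of Tnfsf8, while Tnfsf15 and Tnc had few reads. For Tnfrsf12a the neighbours Hcfc1r1 (-0.21) and Thoc6 (-0.20) had intervals that held 0, and Pkmyt1 was at -1.16 with an interval from -1.57 to -0.79.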

How the data were processed

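Total RNA of RBL-2H3 was sequenced from TruSeq libraries that keep strand, per the labels' protocols. Tools in the submitters' processing notes are STAR 2.5, DESeq 1.22.1, Cuffnorm and FastQC, with no role stated. The genome build, and how reads were counted, were items not given in the sources used here. Levels in the authors' deposited table are log2 values for each transcript. After undoing the log2 and subtracting 1, 100% were whole multiples of 1 step per library within 0.0001 reads, which gave size factors of 1.15 (saline) and 0.605 (treated) and the reads. The authors' deposited p-values were used as listed, with their program unstated. A further 8 columns repeat used values and were left out.

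Transcripts were summed by symbol, and 1276 without a symbol were left out of the sums. Log2 folds used a pseudocount of 1. Intervals are exact Clopper-Pearson or Poisson intervals, and precision follows the depth: 1200 against 121 reads for Tnfsf8, 3 against 0 for Tnfrsf1b. Reads are not independent molecules. No test was run across conditions. The design had been written for log2 values and was kept. The 6 related lists hold 108 names, of which 81 genes were measured, 1 name (Auf1) being another name of Hnrnpd. Members and lists were chosen with earlier results of these data known. Named by rule were all members, and per list the 3 largest folds and the 2 highest means among genes with a normalised count of at least 5; others are said to be named afterwards. Upstream sequences of all 8 genes matched by symbol. On simulated Poisson counts for this comparison over 15409 symbols, 100% of 200 symbols changed by a log2 fold of 2, drawn from those with a mean of at least 50, passed the size rule, and 95.7% of intervals held the true ratio. The intervals checked were also those of symbols with a mean of at least 50, and the planted fold lay well past the size rule. The simulation thus does not speak to genes with few reads. Simulated counts hold no spread between cultures. Alternatives were pseudocounts of 0.5 and 5, no filter or one of 5, library totals, TMM or median-of-ratios scaling and the highest transcript alone. A minimum of 10 reads was added after the data were seen. Software was SciPy 1.17.1, pandas 2.3.3, NumPy 2.4.6 and Matplotlib 3.10.9 under Python 3.11.15.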

Additional observations from a re-analysis of the deposited data

How the results depend on the processing

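Log2 folds of the measured genes stayed between -2.43 and -2.35 for Tnfsf8, -1.60 and -1.43 for Tnfrsf12a, -0.89 and -0.71 for Traf1, and 0.40 and 0.48 for Tnf under the alternatives run. Tnfrsf9 was at 1.13 with its highest transcript alone, in place of 0.36, and the number of the 6 genes at least 2-fold higher was then 1 in place of 0, because the dropped transcript lay on the other side. The dropped transcript, at -0.39, had more reads in the saline library (88 against 50), so this value depends on which transcript is taken. With that setting 2 TRAF adaptors were higher, in place of 1. With a pseudocount of 5, 0 further ligands and 0 further receptors were lower, in place of 2 and 3. With a filter of 5, and also with the minimum of 10 reads added after the data were seen, 1 further ligand and 1 further receptor were lower; the genes that dropped out had few reads. With that minimum 0 genes of Tnf mRNA control and shedding were higher, in place of 1. With library totals made equal, 2 feedback genes were lower, in place of 1. The other 160 of 171 values moved less, folds staying inside their interval and counts within 1.5 times. Of these counts, the members at least 2-fold lower were 2 in place of 3, without Tnfrsf1b, in some settings. These were a pseudocount of 5, a filter of 5 and the minimum of 10 reads. Higher genes of the receptor complex list were 2 in place of 3 with a pseudocount of 5, equal library totals or TMM factors. The higher feedback genes were 3 in place of 4 with the minimum of 10 reads, and the lower genes of Tnf mRNA control and shedding 3 in place of 2 with library totals made equal. Over all symbols, 1826 were higher and 2876 lower, against 1023 and 1650 with a pseudocount of 5 and 1075 and 1586 with the minimum of 10 reads. No scaling moved the median of all symbols by more than 0.052 either way. No paired analysis was possible because each group has 1 library and the labels give no replicate numbers. Leaving out a replicate was not possible either.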
